A study of Rattus norvegicus with 9 samples.

Results

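Gene expression in the rat spleen was compared between animals given TAA alone and the average of control animals and animals given TAA with celecoxib. TAA is thioacetamide, which injures hepatocytes and on repeated dosing leaves rats with cirrhosis. Celecoxib blocks cyclooxygenase 2. For each gene the mean of the 3 TAA libraries was set against the midpoint of the control mean and the TAA+celecoxib mean, each from 3 libraries, so a gene stands out where spleens given TAA alone lay apart from both other groups. The comparison covered 15954 of the 34408 gene entries in the deposited count table, those that passed a standard filter on low counts, and all 9 of 9 libraries.

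Per the labels, all samples were spleen from rats of the WT genotype, with the cell type name splenocytes. The TAA group received intraperitoneal TAA at 200 mg/kg per 3 days for the first 8 weeks and at 100 mg/kg per 3 days for the last 8 weeks. The TAA+celecoxib group carried the same TAA treatment and also received celecoxib at 20 mg/kg/day over the last 8 weeks, so no group received celecoxib without TAA. The labels give no strain, age or sex and do not say that each library came from a separate animal, so p-values refer only to the spread among these libraries, which may be technical.

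The spleen filters blood in its red pulp, where macrophages take up worn red cells and recover their iron, and holds T and B lymphocytes in its white pulp. Cirrhosis raises pressure in the portal vein, into which the spleen drains, and the spleen then enlarges, and in rodents the red pulp can also make red cells, granulocytes and platelets. Type I interferons induce a group of antiviral genes through shared promoter elements, and decorin and collagens belong to the matrix that stromal cells lay down.

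Libraries held 14211789 to 19014761 counts, so that 1 count was worth 0.0522 to 0.0710 CPM (CPM being counts scaled by TMM-adjusted library size). Markers of splenic lymphocytes and red pulp were present in every library, with the B cell gene Ms4a1 at 270 to 531 CPM and Spic, a factor of red pulp macrophages, at 59.1 to 144 CPM. Control 1 and TAA+celecoxib 1 stood apart from the other libraries on the first principal component, at -63.2 and -60.3 against -1.73 to 50.1 for the other 7, and this component held 31.3% of the variance. Their macrophage scores (the mean log2 CPM of the macrophage genes listed here) were 6.37 and 5.97, below all others, whose lowest was 7.40. Both belong to the groups against which TAA was compared, so medians of the lists described at length are also given without them, a setting chosen after seeing the data. Transcripts of liver were found in TAA 1, where Alb, which encodes albumin, was at 575 CPM, and in control 1 at 89.0 CPM, with at most 0.701 CPM in the other 7. Prss1, a trypsinogen of pancreatic acinar cells that did not pass the filter, was at 23.1 CPM in TAA 2 and at most 1.08 CPM elsewhere.

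No gene passed the threshold in the comparison of TAA with the other groups. edgeR's quasi-likelihood test called 0 of 15954 genes (0%) at a Benjamini-Hochberg adjusted p under 0.05, and the smallest adjusted p was 0.171. Without adjustment, 944 genes (5.92%) had p under 0.05, of which 453 (2.84%) had higher and 491 (3.08%) lower fitted values in TAA. By limma-voom 0 genes were called, and by DESeq2 51, with 26 on the high and 25 on the low side of the midpoint. Most genes lay close to the other groups, with a median log2 fold change of 0.00 and 95% of genes between -0.81 and 0.995. A difference larger than 1 on the log2 scale was fitted for 629 genes (3.94%).

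A separate description is the position of the libraries. In 238 genes (1.49%) all 3 TAA libraries lay above the other 6, and in 302 genes (1.89%) all 3 lay below them, 540 genes (3.38%) in either direction. The genes above had a median log2 fold change of 0.55 (interquartile range 0.33 to 0.92) and the genes below a median of -0.52 (-0.83 to -0.31). The TAA+celecoxib mean lay between control and TAA in 98 of the 238 genes above, and beyond control in 140. Among the 302 genes below, these counts were 129 and 173. The difference between TAA+celecoxib and control was smaller than the difference of TAA from their midpoint in 235 of 238 and 299 of 302 of these genes, which is in part what the choice of genes by position fixes.

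**Figure D1:**
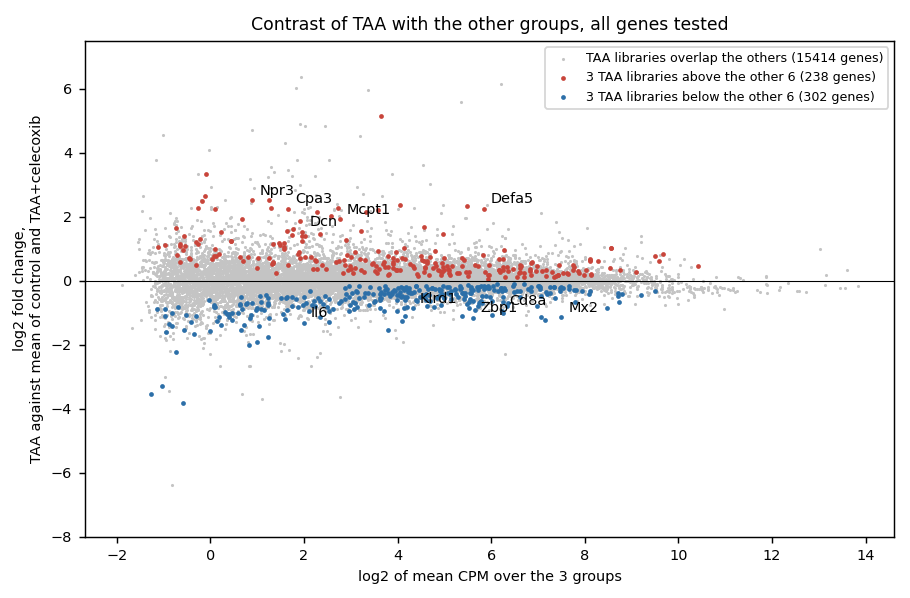
Log2 fold change of TAA against the midpoint of control and TAA+celecoxib for all 15954 genes (vertical axis) by mean expression over the 9 libraries (horizontal axis, log2 CPM). Coloured points are the 238 genes with all 3 TAA libraries above the other 6 and the 302 with all 3 below, and most genes lie near 0 at every expression level.

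TAA was also set against each group alone. These comparisons share the TAA libraries, and each called 0 genes (0%). Against control, 957 genes (6%) had unadjusted p under 0.05, 455 (2.85%) higher and 502 (3.15%) lower in TAA, and the smallest edgeR adjusted p was 0.325. Against TAA+celecoxib the count was 812 (5.09%), 393 (2.46%) higher and 419 (2.63%) lower, and the smallest adjusted p was 0.328. TAA+celecoxib against control, which does not use the TAA libraries for its difference, called 0 genes (0%), with 803 genes (5.03%) at unadjusted p under 0.05 and a smallest adjusted p of 0.566 in edgeR. Of these, 472 (2.96%) were higher and 331 (2.07%) lower with celecoxib.

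Dcn, which encodes decorin, a small proteoglycan that binds collagen fibrils and TGF-beta, had the smallest p among the genes named by rule. Of all genes tested only LOC103692976 had a smaller p, and its mean was under the 1 CPM that the rule asks for. The rule also leaves out placeholder symbols such as those starting with LOC. Dcn is placed by the files at chromosome 7, 38742051 to 38782323. Its levels were 6.75, 6.58 and 7.31 CPM in the TAA libraries, 2.59, 2.84 and 2.85 CPM in the controls and 2.09, 1.68 and 2.42 CPM in TAA+celecoxib. The lowest TAA library, at 6.58 CPM, lay well above the highest of the others, at 2.85 CPM. TAA differed from the midpoint by a log2 fold change of 1.52 (SE 0.19; edgeR adjusted p = 0.171; DESeq2 adjusted p = 2.26e-08), and it stayed between 1.46 and 1.59 when any 1 library was left out. TAA+celecoxib differed from control by -0.41 on the log2 scale (95% interval -0.93 to 0.11).

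Cd8a, the alpha chain of the CD8 co-receptor of cytotoxic T cells and in rats also of NK cells (chromosome 4, 99239115 to 99243351), had the smallest p of the genes lower in TAA. Its levels were 45.0, 55.1 and 38.1 CPM in TAA, 79.5, 80.8 and 96.2 CPM in the controls and 93.3, 91.7 and 91.3 CPM in TAA+celecoxib. The highest TAA library was thus below the lowest of the other 6. A log2 fold change of -0.95 was fitted (SE 0.13; edgeR adjusted p = 0.285; DESeq2 adjusted p = 7.85e-07), and TAA+celecoxib differed from control by 0.11 (95% interval -0.22 to 0.44). In whole spleen, fewer cells of a type and less RNA per cell cannot be told apart.

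Genes named by rule were those with the smallest p among genes with a mean of at least 1 CPM and all 3 TAA libraries on 1 side of the other 6, 12 in each direction. Placeholder symbols, such as those starting with LOC or AABR, were left out. Beside Dcn, the genes above were Defa5, Ldhb, Cpa3, Mcpt1, Npr3, Cma1, Ptpn1, Il18bp, Cygb, Fblim1 and Tef. Beside Cd8a, the genes below were Asb2, Klrd1, Usp40, Tlr3, Parm1, Themis, Sp6, Il6, Spo11, Ctsw and Zbp1. Their edgeR adjusted p lay between 0.171 and 0.738, so none was called.

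**Figure D2:**
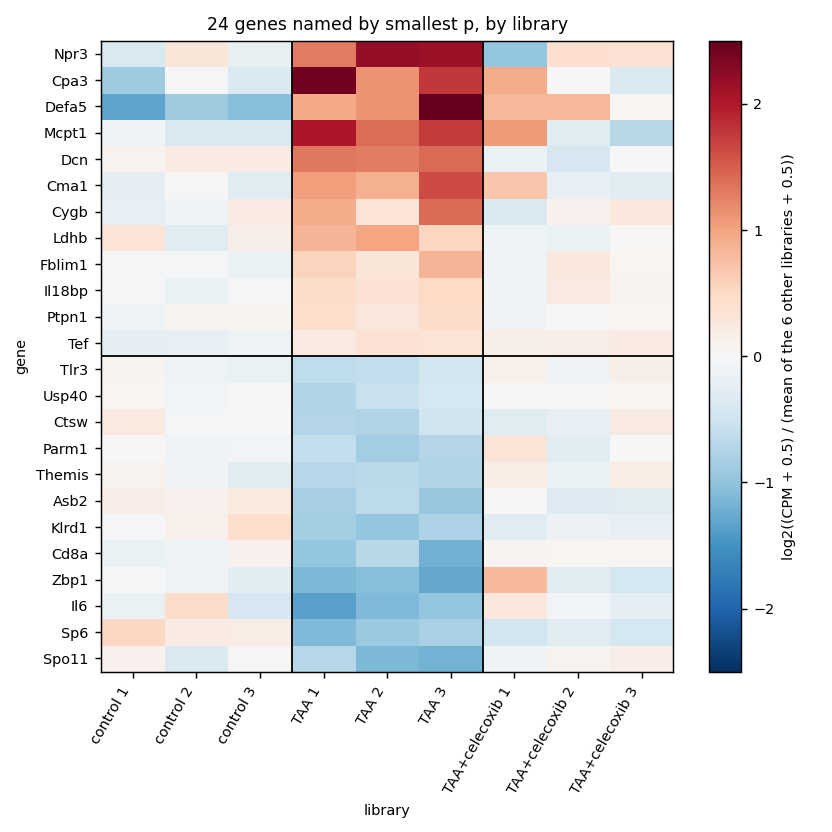
Expression of the 24 genes named by rule in each of the 9 libraries, as log2 of (CPM + 0.5) over the mean of the 6 control and TAA+celecoxib libraries, with colours limited to 2.5 either way. The 3 TAA columns lie to 1 side of the others in every row by construction, and Defa5 in TAA 3 lies beyond the colour limit.

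The other genes named on the high side have varied roles. Npr3, the clearance receptor for natriuretic peptides, was at 2.49, 5.07 and 4.86 CPM in TAA and at 0.127 to 1.12 CPM in the other 6, a log2 fold change of 2.51 (SE 0.53). Cygb, or cytoglobin, a globin of fibroblasts and hepatic stellate cells, was at 112, 72.9 and 158 CPM in TAA against 45.6 to 69.9 CPM, and TAA 2 lay close to the highest of the others. Its log2 fold change was 0.97 (SE 0.23). Ldhb, the B subunit of lactate dehydrogenase, was at 81.6, 89.7 and 66.1 CPM in TAA against 36.4 to 57.1 CPM elsewhere. The remaining differences were smaller: Fblim1, an adaptor between filamin and cell adhesions, had a log2 fold change of 0.60, Il18bp, the soluble inhibitor of interleukin 18, of 0.45, and the tyrosine phosphatase Ptpn1 of 0.39. Ptpn1 varied little, at 108 to 122 CPM in TAA and 81.0 to 93.8 CPM in the other libraries.

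The T cell list held the most members that were lower at unadjusted p under 0.05. Of its 20 genes, all tested, 18 had lower fitted values in TAA, 14 with unadjusted p under 0.05 where 3.08% of all genes were that low, and 6 had all 3 TAA libraries below the other 6 where 1.89% of all genes did. The median log2 fold change was -0.67, against 0.00 over all genes, and it was -0.72 against control and -0.61 against TAA+celecoxib. The median for TAA+celecoxib against control was -0.05. Leaving out any 1 library put the median between -0.77 and -0.52, and it was -0.47 without control 1 and TAA+celecoxib 1.

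Among the T cell genes, Cd8b, the other CD8 chain, was at 9.52, 15.1 and 9.61 CPM in TAA, 16.6, 21.1 and 23.8 CPM in the controls and 22.9, 17.5 and 21.7 CPM in TAA+celecoxib, a log2 fold change of -0.86 (SE 0.21). Cd3e, a signalling chain of the T cell receptor complex, was at 56.4, 61.6 and 45.5 CPM in TAA, 112, 87.3 and 79.6 CPM in the controls and 124, 63.6 and 101 CPM in TAA+celecoxib. For Cd3e the TAA libraries did not overlap the other 6, but TAA+celecoxib 2 lay just above TAA 2. The co-stimulatory receptor Cd28 (-0.50) and the surface receptor Cd6 (-0.68) had the same position, as did Themis, which was named by rule and acts in T cell receptor signalling and thymic selection (-0.75, with at most 7.47 CPM in TAA against 10.1 to 14.0 CPM). Cd4, which in rats is also carried by macrophages, was the member with the highest fitted value, at 0.22, followed by the interleukin 7 receptor Il7r at 0.11. The mean log2 CPM over the list was 5.54, 5.64 and 5.27 in TAA and 5.56 to 6.35 in the other libraries, so by this score TAA+celecoxib 2, at 5.56, lay within the TAA range.

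Among NK and cytotoxic cell genes, Klrd1 had the smallest p. Klrd1, which encodes CD94, a partner of the NKG2 receptors on NK and CD8 T cells (chromosome 4, 163358009 to 163369854), was at 12.9, 11.9 and 13.7 CPM in TAA, 23.1, 25.9 and 32.0 CPM in the controls and 19.1, 21.3 and 20.3 CPM in TAA+celecoxib. The groups formed 3 separate steps, with control highest and TAA lowest. The log2 fold change was -0.86 (SE 0.14; edgeR adjusted p = 0.518), and TAA+celecoxib differed from control by -0.41 (95% interval -0.76 to -0.07, unadjusted). Ctsw, the cathepsin of cytotoxic lymphocytes, was at 31.0 to 37.4 CPM in TAA and 42.5 to 62.7 CPM elsewhere. Of the 15 tested NK and cytotoxic genes, 4 were lower and 0 higher at unadjusted p under 0.05 (all genes 3.08% and 2.84%), and the median was -0.35. It was -0.45 against control but -0.18 against TAA+celecoxib, and TAA+celecoxib against control had a median of -0.35. TAA+celecoxib thus shared much of the difference from control. The mean log2 CPM over the list was 3.34 to 3.96 in TAA and 3.56 to 4.46 in the other libraries, so by this score they overlapped. The granule proteins Prf1 (0.07), Nkg7 (-0.03) and Gzmk (0.07) and the NK receptor Ncr1 (0.00) had fitted values near 0. Of 11 regulatory and checkpoint genes, 3 were lower at that level, among them Lag3, an inhibitory receptor, at 13.3 to 18.8 CPM in TAA against 19.9 to 26.8 CPM. That median, -0.37, was -0.09 without control 1 and TAA+celecoxib 1, and -0.15 without TAA+celecoxib 1 alone.

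**Figure D3:**
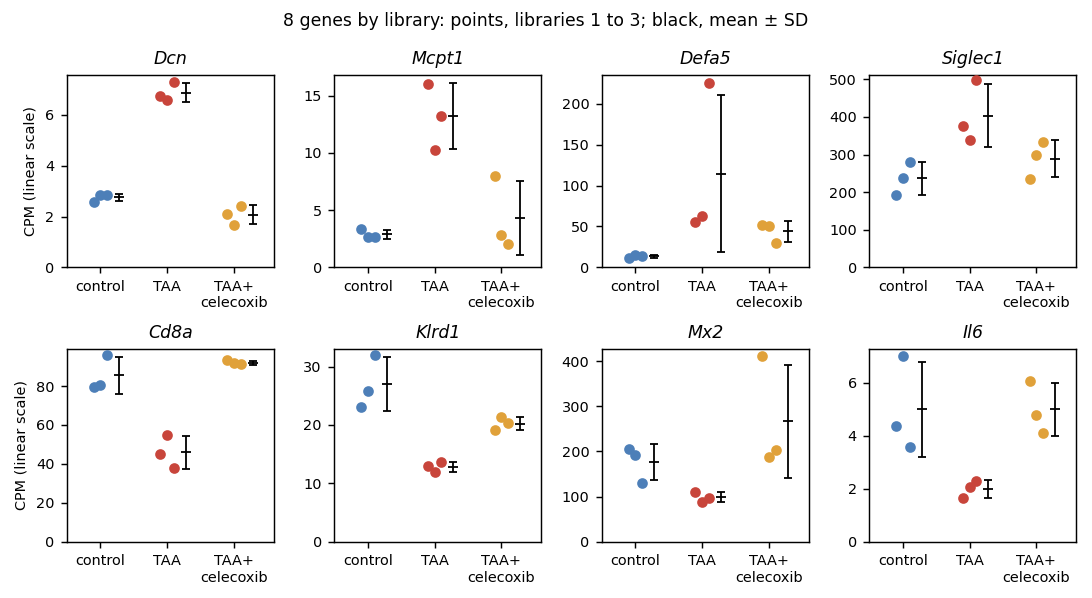
Expression in CPM of 8 named genes in each library, grouped as control, TAA and TAA+celecoxib with 3 libraries each and with the group mean marked. Dcn, Mcpt1, Defa5 and Siglec1 are higher and Cd8a, Klrd1, Mx2 and Il6 lower in all 3 TAA libraries than in the other 6.

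Interferon-induced genes were also mostly on the low side. Of 25 tested members, 23 had lower fitted values in TAA, 12 were lower and 0 higher at unadjusted p under 0.05 (all genes 3.08% and 2.84%), and 8 had all TAA libraries below the other 6 (all genes 1.89%). The median log2 fold change was -0.55. It was -0.32 against control and -0.69 against TAA+celecoxib, and TAA+celecoxib against control had a median of 0.34. Leaving out any 1 library put the median between -0.62 and -0.41, and it was -0.41 without control 1 and TAA+celecoxib 1.

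Mx2, a GTPase that blocks viral replication, was at 110, 87.7 and 98.0 CPM in TAA, 206, 191 and 131 CPM in the controls and 411, 187 and 202 CPM in TAA+celecoxib. Control 3 came nearest to the TAA libraries and TAA+celecoxib 1 was highest. Its log2 fold change was -1.14 (SE 0.28; edgeR adjusted p = 0.738), with TAA+celecoxib above control by 0.60 (95% interval -0.09 to 1.29). Its relative Mx1 was at 226, 226 and 235 CPM in TAA against 296 to 703 CPM in the other libraries. The TAA libraries thus lay closer to each other for Mx1 than the other 6 did. Isg15, a ubiquitin-like modifier, was at 27.9, 19.7 and 22.5 CPM in TAA, 61.4, 49.0 and 30.05 CPM in the controls and 95.1, 41.2 and 28.7 CPM in TAA+celecoxib. Here the third replicates of control and TAA+celecoxib lay next to TAA 1. Herc6 (-1.09), Ifi44 (-0.997), Usp18, which removes Isg15 from proteins (-0.93), and Rtp4 (-0.65) had the same position. Rsad2, which encodes viperin, had the highest fitted value on the list, 0.43. The mean log2 CPM over the list was 5.53 to 5.65 in TAA and 5.75 to 6.47 in the other 6 libraries.

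Sensors of viral nucleic acids named by rule lay on the same side. Zbp1, a sensor of Z-form nucleic acid that interferon induces, was at 27.1, 28.2 and 24.5 CPM in TAA and 43.9 to 105 CPM in the other 6, a log2 fold change of -1.16 (SE 0.27). Tlr3, the endosomal receptor for viral RNA, was at 33.7, 34.3 and 38.4 CPM in TAA and 47.1 to 58.8 CPM elsewhere, a log2 fold change of -0.57 (SE 0.11).

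The remaining genes named on the low side belonged to none of the lists. Usp40, a deubiquitinating enzyme, was at 28.5, 32.9 and 35.3 CPM in TAA and 46.1 to 50.2 CPM elsewhere, a log2 fold change of -0.58 (SE 0.10). The other 6 libraries lay closer together for Usp40 than the TAA libraries did. Parm1, a mucin-like membrane protein, was at 28.2 to 33.5 CPM in TAA and 43.2 to 64.9 CPM elsewhere, and Spo11, which cuts DNA in meiosis, at 0.627 to 1.07 CPM and 1.5 to 2.37 CPM. Asb2 and Sp6 are described with the comparison of TAA+celecoxib and control.

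The promoter of Ifi44 is shown because it carries the element through which interferon-induced genes are known to be activated. The core of the interferon-stimulated response element (GAAA, any pair of bases NN, then GAAA) was searched on both strands in the 250 bases before the gene starts of RefSeq (GRCr8). It was found in 11 of the 16 interferon genes whose promoter was in the table (68.8%) and in 992 of 27457 promoters in all (3.61%). In Ifi44 it reads on the opposite strand, as the capitals, 26 to 17 bases before the start, at chr2:243303841-243304090 on the minus strand. A match of letters describes the sequence and does not show that a factor binds there.
Ifi44: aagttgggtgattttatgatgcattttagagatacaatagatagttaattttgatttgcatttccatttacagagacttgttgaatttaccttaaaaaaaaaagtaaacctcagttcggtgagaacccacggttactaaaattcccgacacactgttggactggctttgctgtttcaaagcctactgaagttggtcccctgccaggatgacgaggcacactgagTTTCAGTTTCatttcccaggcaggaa

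Mast cell protease genes lay higher in TAA, within a list of mast cell, basophil and eosinophil genes. Of 14 tested members, 7 were higher and 0 lower at unadjusted p under 0.05 (all genes 2.84% higher), 4 had all TAA libraries above the other 6 (all genes 1.49%), and the median log2 fold change was 0.92. The median was 0.95 against control, 0.90 against TAA+celecoxib and 0.05 for TAA+celecoxib against control. Leaving out 1 library put it between 0.71 and 1.24, and it was 0.64 without control 1 and TAA+celecoxib 1.

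Mast cell proteases had the smallest p in this list. Cpa3, the carboxypeptidase of mast cell granules (chromosome 2, 105016626 to 105047984), was at 9.80, 3.77 and 6.16 CPM in TAA, 0.555, 1.39 and 1.02 CPM in the controls and 3.23, 1.47 and 1.01 CPM in TAA+celecoxib. Mcpt1, a mast cell chymase, was at 16.1, 10.3 and 13.3 CPM in TAA, 3.33, 2.61 and 2.67 CPM in the controls and 7.98, 2.81 and 2.03 CPM in TAA+celecoxib. In both genes TAA+celecoxib 1 was the highest library outside TAA, although still below it. Fitted log2 fold changes were 2.25 (SE 0.44) and 1.91 (SE 0.38), with edgeR adjusted p of 0.687 and 0.712. Cma1, another chymase, was at 5.97, 5.34 and 9.30 CPM in TAA and 2.05 to 4.62 CPM elsewhere, and Ms4a2, the beta chain of the high-affinity IgE receptor, at 3.22 to 4.44 CPM in TAA and 0.678 to 2.67 CPM elsewhere. Chymase genes such as Mcpt1 and Cma1 are related in sequence, so reads may be split among them. Kit, the stem cell factor receptor (-0.13), and Hdc, which makes histamine (-0.87), did not share the direction. The eosinophil granule genes Epx (3.33) and Prg2 (3.03) had large fitted values that came mainly from TAA 3, with Epx at 90.9 CPM and Prg2 at 146 CPM there.

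GATA factors, which bind the letters AGATAA among others, are known regulators of mast cells and of erythroid cells, and the promoters of the mast cell proteases Cpa3 and Cma1 are shown for that reason. AGATAA was found on either strand in 4 of 12 promoters of the mast cell, basophil and eosinophil list (33.3%), in 7 of 18 erythroid promoters (38.9%) and in 2998 of 27457 promoters in all (10.9%). It lies, in capitals, 55 to 50 bases before the start of Cpa3, at chr2:104673238-104673487, and 64 to 59 bases before that of Cma1, at chr15:33390134-33390383. Both genes are on the minus strand of GRCr8 in RefSeq.
Cpa3: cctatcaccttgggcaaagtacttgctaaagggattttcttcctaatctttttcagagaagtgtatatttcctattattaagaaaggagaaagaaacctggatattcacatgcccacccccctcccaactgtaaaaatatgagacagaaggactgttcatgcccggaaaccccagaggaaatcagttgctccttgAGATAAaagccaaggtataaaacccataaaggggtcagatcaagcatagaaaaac
Cma1: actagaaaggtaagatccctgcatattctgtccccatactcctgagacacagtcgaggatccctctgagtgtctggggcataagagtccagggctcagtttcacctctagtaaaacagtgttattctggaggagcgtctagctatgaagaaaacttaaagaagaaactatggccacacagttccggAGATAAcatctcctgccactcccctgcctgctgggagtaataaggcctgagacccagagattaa

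Granule proteins of granulocyte precursors were higher in TAA than in the midpoint, but TAA+celecoxib shared much of the difference from control. Of 14 tested genes 12 were higher and 0 lower at unadjusted p under 0.05 (all genes 2.84% higher), and the median was 1.77. The medians were 3.12 for TAA against control, 0.79 for TAA against TAA+celecoxib and 2.07 for TAA+celecoxib against control. Only 2 of the 14, Defa5 and Cebpe, had all 3 TAA libraries above the other 6 (all genes 1.49%). Without TAA 3 the median was 0.97, the lowest over the libraries left out in turn, and without control 1 and TAA+celecoxib 1 it was 1.43.

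Defa5, a neutrophil defensin in this annotation and 1 of several near-identical defensin copies, was at 55.8, 63.0 and 225 CPM in TAA, 11.2, 15.2 and 13.5 CPM in the controls and 51.6, 51.1 and 29.7 CPM in TAA+celecoxib. TAA 3 was far above all others and TAA 1 just above TAA+celecoxib 1. The log2 fold change was 2.24 (SE 0.41; edgeR adjusted p = 0.614), 1.29 without TAA 3, and TAA+celecoxib exceeded control by 1.73 (95% interval 0.56 to 2.90, unadjusted). Camp, the cathelicidin of neutrophil granules, was at 27.4, 23.2 and 49.1 CPM in TAA, 5.36, 8.78 and 7.57 CPM in the controls and 28.4, 21.5 and 15.7 CPM in TAA+celecoxib. TAA and TAA+celecoxib overlapped for Camp, and both lay above all controls. Its log2 fold change was 1.40 (SE 0.28), and TAA+celecoxib exceeded control by 1.59 (95% interval 0.82 to 2.36, unadjusted). Genes of mature neutrophils had a median of 1.06. Of 13 genes, 4 were higher at unadjusted p under 0.05 (all genes 2.84%) and 0 had separate positions (all genes 3.38%). That median was 0.18 without TAA 3 and 0.57 without control 1 and TAA+celecoxib 1. S100a8, a calcium-binding protein abundant in neutrophils, was at 171, 122 and 652 CPM in TAA against 23.5 to 165 CPM elsewhere.

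Erythroid and cell cycle genes had different medians against control and against TAA+celecoxib, which the midpoint averages. The 24 tested erythroid genes had a median of 0.97 in this comparison with 0 members at unadjusted p under 0.05 in either direction (all genes 5.92%). The median was 1.98 against control, -0.19 against TAA+celecoxib and 2.23 for TAA+celecoxib against control. Sptb, the beta spectrin under the erythrocyte membrane, was at 482, 55.1 and 227 CPM in TAA, 69.0, 41.6 and 10.9 CPM in the controls and 135, 547 and 77.3 CPM in TAA+celecoxib. The range within TAA and within TAA+celecoxib was wider than the gap between their means. Without TAA 1 the erythroid median was 0.06, and without control 1 it was 1.47, the lowest and highest over the libraries left out in turn. It was 1.36 without control 1 and TAA+celecoxib 1. Cell cycle genes followed the same pattern at a smaller size, with medians of 0.22, 0.67, -0.13 and 0.80 in the same order, and 0 of 24 members at unadjusted p under 0.05. Without TAA 1 their median was -0.04, without TAA 3 it was 0.44, and without control 1 and TAA+celecoxib 1 it was 0.35.

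Macrophage genes were on the high side in all 19 tested members, and their median difference was 0.63 on the log2 scale. Of these, 5 were higher and 0 lower at unadjusted p under 0.05 (all genes 2.84% higher), and 4 had all TAA libraries above the other 6 (all genes 1.49%). Siglec1, the sialoadhesin of marginal metallophilic macrophages, was at 376, 338 and 497 CPM in TAA, 192, 238 and 280 CPM in the controls and 236, 298 and 332 CPM in TAA+celecoxib. TAA 2 lay just above TAA+celecoxib 3. The log2 fold change was 0.63 (SE 0.17), and 0.49 without control 1 and TAA+celecoxib 1. C1qb, a chain of complement C1q, had a value of 0.78, or 0.47 without TAA 3, and Csf1r, the receptor for macrophage colony-stimulating factor, of 0.61. Without control 1 and TAA+celecoxib 1 the values were 0.53 for C1qb and 0.37 for Csf1r. Control 1 and TAA+celecoxib 1 held the lowest macrophage scores, and without them the macrophage median was 0.36. The part of these libraries in the result beyond that value was not tested.

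Other lists shared the high side and the same dependence. Genes of haem and iron recycling had a median of 0.52, and 0.21 without control 1 and TAA+celecoxib 1. All 14 fitted values were above 0, and 3 genes were higher at unadjusted p under 0.05 (all genes 2.84%). The 3 were Hp and Hpx, plasma proteins that bind haemoglobin and haem and are made mainly by liver, and Ncoa4, the receptor for ferritin breakdown. Hpx reached 71.0 CPM in TAA 1 and 7.71 CPM in control 1, the libraries with Alb, with at most 0.685 CPM elsewhere. Without TAA 1 its log2 fold change was -0.83. Megakaryocyte and platelet genes had a median of 0.58 with all 16 above 0, and 0.37 without those libraries. Itga2b, the platelet integrin alpha IIb, was at 102, 109 and 94.0 CPM in TAA and 42.3 to 81.6 CPM elsewhere, a log2 fold change of 0.69 (SE 0.20). Tubb1, the tubulin of platelets, was at 21.0 to 28.5 CPM in TAA and 4.62 to 20.0 CPM elsewhere, a log2 fold change of 0.67. Without control 1 and TAA+celecoxib 1 the values were 0.51 for Itga2b and 0.35 for Tubb1. Endothelial genes had a median of 0.32 with 0 of 18 at unadjusted p under 0.05 (all genes 5.92%). The endothelial median was 0.12 without TAA 3 and 0.10 without control 1 and TAA+celecoxib 1.

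**Figure D4:**
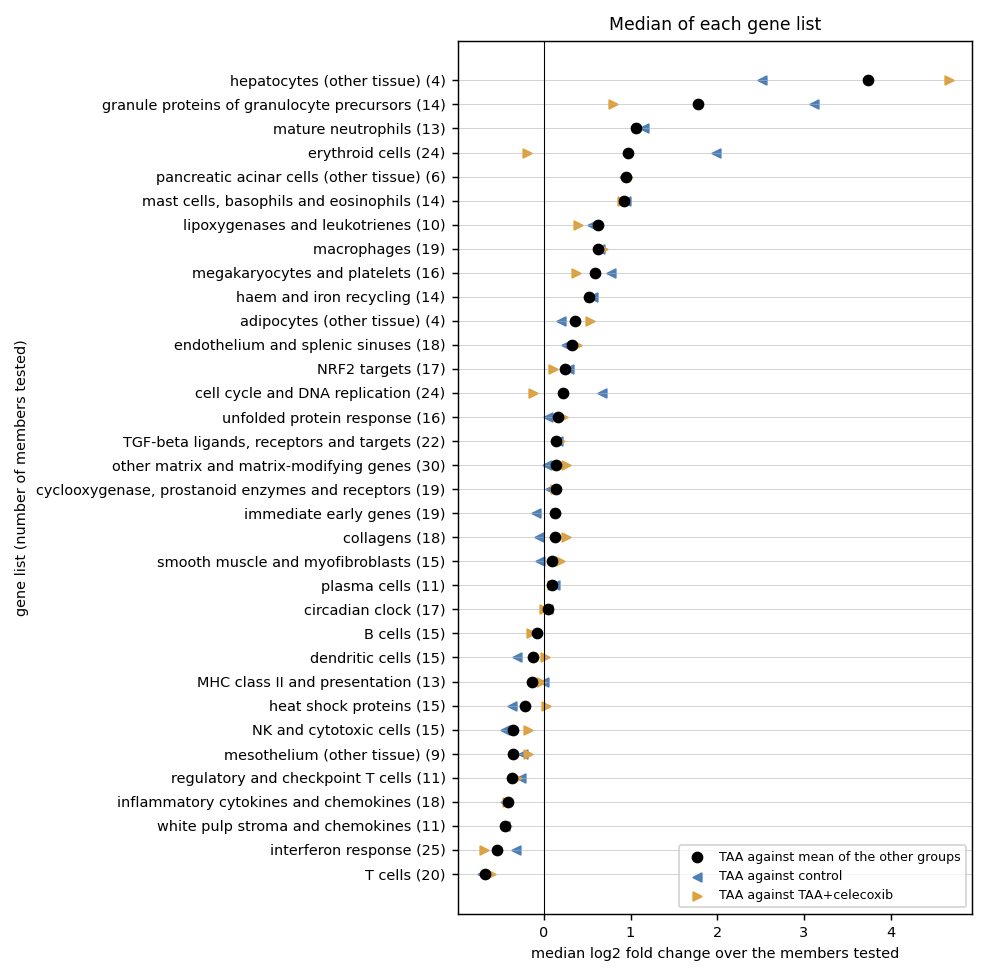
Median log2 fold change of each gene list in TAA against the midpoint of control and TAA+celecoxib, with the medians against each group alone. T cell and interferon genes lie at -0.67 and -0.55, mast cell genes at 0.92 and granulocyte precursor genes at 1.77, while erythroid genes lie at 1.98 against control and -0.19 against TAA+celecoxib.

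The medians of the matrix lists were small beside the value of Dcn. The 18 collagens had a median of 0.13 with 1 higher and 1 lower at unadjusted p under 0.05, where 2.84% and 3.08% of all genes were. The median was -0.06 against control and 0.25 against TAA+celecoxib, and TAA+celecoxib against control had a median of -0.40. Against the midpoint it ran from 0.03 without TAA 2 to 0.25 without TAA 3, and was -0.02 without control 1 and TAA+celecoxib 1. Col1a1 was fitted at -0.27 and Col3a1 at -0.14, the chains of fibrillar collagens I and III. Col6a5, a chain of collagen VI, was at 176, 116 and 180 CPM in TAA, 333, 269 and 280 CPM in the controls and 184, 186 and 259 CPM in TAA+celecoxib, with TAA 3 next to TAA+celecoxib 1. Its log2 fold change was -0.66 (SE 0.18), and TAA+celecoxib differed from control by -0.49 (95% interval -0.95 to -0.03, unadjusted). Col4a5, a chain of basement membrane collagen IV, was at 18.5 to 27.1 CPM in TAA, 14.2 to 28.6 CPM in the controls and 8.01 to 13.5 CPM in TAA+celecoxib. Col4a5 thus overlapped control and not TAA+celecoxib. The other 30 matrix genes had a median of 0.14, with 4 higher and 1 lower at unadjusted p under 0.05 (all genes 2.84% and 3.08%), and Dcn was the only 1 of them with separate positions. Thbs1, or thrombospondin 1, had 79.4, 107 and 153 CPM in TAA and 32.4 to 91.9 CPM elsewhere. The 22 genes of TGF-beta signalling had a median of 0.14 and smooth muscle genes of 0.09, and the first was 0.09 without TAA 3 and 0.03 without control 1 and TAA+celecoxib 1. Tgfb3, a TGF-beta ligand, reached 24.5 CPM in TAA 2, with 5.41 to 9.19 CPM in the other 8, and its log2 fold change of 1.05 was 0.26 without TAA 2. The smooth muscle median was -0.27 without TAA 2.

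Celecoxib acts on the prostanoid pathway, in which cyclooxygenases turn arachidonic acid into prostaglandin precursors. Ptgs1, which encodes cyclooxygenase 1, was at 48.2, 47.9 and 73.2 CPM in TAA, 29.6, 39.9 and 42.0 CPM in the controls and 27.4, 42.6 and 36.8 CPM in TAA+celecoxib. All TAA libraries lay above the other 6, with a log2 fold change of 0.63 (SE 0.20; edgeR adjusted p = 0.747), or 0.40 without TAA 3. Ptgs2, which encodes cyclooxygenase 2, the target of celecoxib, was at 0.639, 0.822 and 1.25 CPM in TAA and 0.771 to 1.65 CPM elsewhere, so its groups overlapped. Its log2 fold change of -0.30 (SE 0.36) ran from -0.61 without TAA 3 to -0.09 without TAA 1. Per length, mean levels were 20.0 FPKM for Ptgs1 and 0.206 FPKM for Ptgs2 in TAA. Hpgd, which inactivates prostaglandins, was at 10.4, 9.31 and 9.40 CPM in TAA, 21.5, 14.3 and 18.6 CPM in the controls and 14.4, 27.2 and 17.1 CPM in TAA+celecoxib. The TAA libraries all lay below the other 6. The log2 fold change of Hpgd was -0.95 (SE 0.23; edgeR adjusted p = 0.738). Pla2g4a, the phospholipase that releases arachidonic acid (0.74), and Tbxas1, thromboxane synthase (0.54), had all TAA libraries above the others at unadjusted p above 0.05. Without control 1 and TAA+celecoxib 1 the log2 fold changes were 0.41 for Pla2g4a, 0.28 for Tbxas1 and 0.48 for Ptgs1. Over all 19 tested genes of the pathway the median was 0.14, with 1 higher and 2 lower at unadjusted p under 0.05 (all genes 2.84% and 3.08%). That median was -0.05 without TAA 3 and 0.04 without control 1 and TAA+celecoxib 1. The 10 lipoxygenase and leukotriene genes had a median of 0.63, or 0.41 without TAA 3, with 3 higher, among them Lta4h, which makes leukotriene B4, at 128 to 184 CPM in TAA and 74.3 to 135 CPM elsewhere.

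Il6, the interleukin of acute inflammation, was lower rather than higher in TAA, at 1.63, 2.05 and 2.30 CPM against 4.38, 7.01 and 3.59 CPM in the controls and 6.08, 4.77 and 4.12 CPM in TAA+celecoxib. The 3 TAA libraries lay below the other 6 and close to each other. The log2 fold change was -1.32 (SE 0.29; edgeR adjusted p = 0.738), and TAA+celecoxib differed from control by 0.00 (95% interval -0.71 to 0.70). Over 18 cytokine and chemokine genes the median was -0.42, with 2 lower, Il6 and Ccl2, and 0 higher at unadjusted p under 0.05 (all genes 3.08% and 2.84%), and it was -0.26 without control 1 and TAA+celecoxib 1. Cxcl13, the B cell attractant of follicles, was at 80.6, 77.7 and 61.8 CPM in TAA, 254, 99.4 and 105 CPM in the controls and 289, 96.2 and 133 CPM in TAA+celecoxib. Control 1 and TAA+celecoxib 1 were far above all others for Cxcl13, and without them the white pulp median of -0.45 was 0.03. Xcr1, the XCL1 receptor carried by cross-presenting dendritic cells, was at 22.2, 19.7 and 19.9 CPM in TAA and 27.3 to 47.4 CPM elsewhere, a log2 fold change of -0.77 (SE 0.18). The 15 dendritic cell genes had a median of -0.13 with 2 lower, and -0.05 without TAA+celecoxib 3 or -0.32 without TAA 3.

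B cell genes had a median of -0.08 and plasma cell genes of 0.09, with 0 of 15 and 1 of 11 at unadjusted p under 0.05 (all genes 5.92%). Without control 1 and TAA+celecoxib 1 these medians were 0.04 and 0.20. The 1 gene, Fkbp11, a chaperone of secretory cells, was at 74.8 to 88.4 CPM in TAA and 51.3 to 81.9 CPM elsewhere. Heat shock genes (median -0.22) and immediate early genes (0.13) had 0 members at that level, and both are sensitive to the handling of tissue. The heat shock median was -0.37 against control and 0.02 against TAA+celecoxib, and TAA+celecoxib against control had -0.39. Against the midpoint the heat shock median was -0.07 without control 2, and that of immediate early genes -0.04 without TAA 1. Genes of the unfolded protein response had 2 of 16 members higher (all genes 2.84%) and a median of 0.16, or 0.04 without TAA 2. Targets of NRF2 had a median of 0.25, which was 0.12 without TAA 3 and 0.08 without control 1 and TAA+celecoxib 1. Of these 17 genes 2 were higher (all genes 2.84%), among them the quinone reductase Nqo1, at 8.49 to 10.7 CPM in TAA and 5.38 to 8.06 CPM elsewhere. Among 17 clock genes the median was 0.04, with 3 higher and 1 lower (all genes 2.84% and 3.08%), and 0.08 to 0.16 with any 1 library left out. Of these, Tef, an output factor of the clock, was at 78.4, 85.9 and 84.7 CPM in TAA, 57.6, 57.7 and 61.5 CPM in the controls and 73.8, 74.7 and 76.9 CPM in TAA+celecoxib. Here TAA+celecoxib lay next to TAA and above control by 0.35 (95% interval 0.15 to 0.56, unadjusted). Antigen presentation genes had a median of -0.14, or -0.02 without TAA+celecoxib 3, with Cd86, a co-stimulatory ligand, at 73.7, 88.4 and 126 CPM in TAA and 46.7 to 69.2 CPM elsewhere, a log2 fold change of 0.67, or 0.43 without TAA 3.

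Markers of neighbouring tissues were checked in the same way. Of 17 hepatocyte genes 4 passed the filter, 3 of them higher at unadjusted p under 0.05 (all genes 2.84%). The summed level of the 4 was 418 to 1149 CPM in TAA, 242 to 378 CPM in the controls and 170 to 371 CPM in TAA+celecoxib. Tf, transferrin, made up much of that sum outside TAA 1 and is also made by other cells. The hepatocyte median of 3.74 was -1.81 without TAA 1. Acinar genes had a median of 0.94, or -0.20 without TAA 2, and mesothelial genes a median of -0.36, or 1.16 without TAA+celecoxib 1. Adipocyte genes had a median of 0.36, with 0 of 4 at unadjusted p under 0.05 and 0.01 without TAA 3. The part of these tissues in other results was not tested.

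TAA+celecoxib was set against control for the 24 genes named by rule, since genes at the same level in both groups give a clean midpoint. In 19 of the 24 genes the 95% interval of that difference included 0, and in 5 it did not. Over all genes, 5.03% had unadjusted p under 0.05 by edgeR in that comparison. Of the genes with separate positions, 4 of the 238 above and 8 of the 302 below did, so the named genes held a larger share. They were chosen by smallest p, which favours genes with a small fitted spread, and the same spread sets the width of these intervals. The larger share is therefore in part fixed by the choice. In Asb2, a substrate receptor of a ubiquitin ligase, TAA+celecoxib was at 25.5 to 32.6 CPM, below the 34.4 to 38.0 CPM of control and above the 16.3 to 20.3 CPM of TAA. Sp6, a transcription factor of the Sp family, likewise had TAA+celecoxib between the groups, at 0.949 to 1.12 CPM, with 1.76 to 2.34 CPM in the controls and 0.426 to 0.627 CPM in TAA. Klrd1, Defa5 and Tef, described above, were the others, and in all 5 the TAA+celecoxib mean lay between control and TAA. Intervals were narrow for some genes and wide for others: for Usp40 the difference was 0.01 (95% interval -0.24 to 0.26), and for Npr3 it was 0.21 (-1.34 to 1.75). An interval that includes 0 does not show that the groups were alike. These intervals do not use replicate number, although same-numbered control and TAA+celecoxib libraries were correlated.

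**Figure D5:**
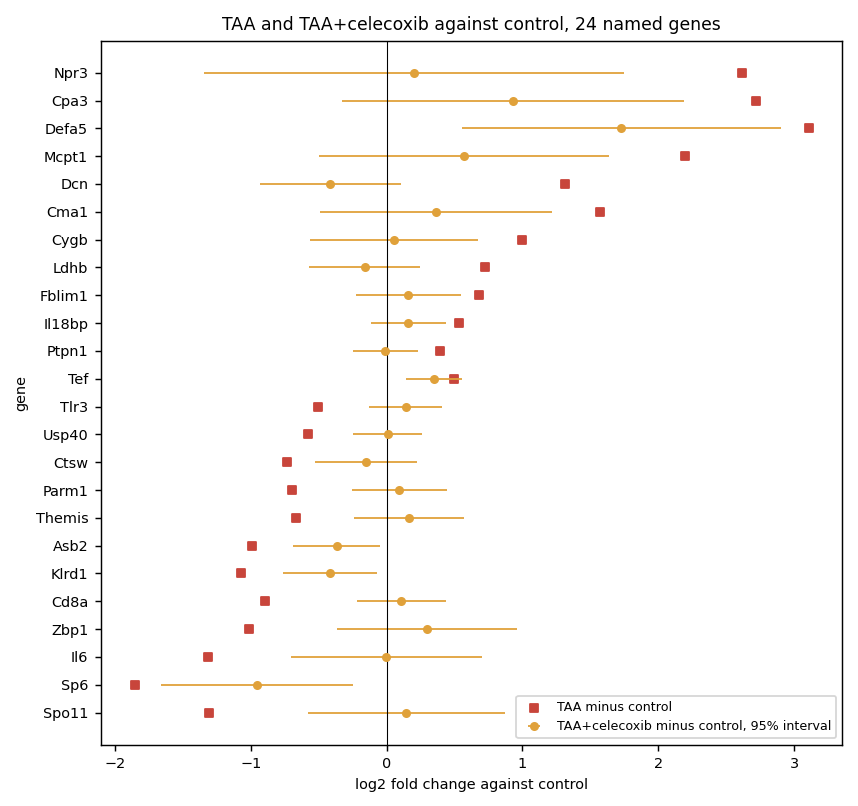
Log2 difference of TAA+celecoxib from control with its 95% interval (points and bars) and of TAA from control (squares) for the 24 genes named by rule. The interval excludes 0 for Defa5, Tef, Asb2, Klrd1 and Sp6, and in each of them it lies on the side of TAA.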

How the data were processed

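RNA sequencing of 9 rat spleen libraries was analysed, 3 in each of the control, TAA and TAA+celecoxib groups. The count table is used as the authors deposited it, with unnormalized reads per gene and a different total in each library, and all tests rest on it. The authors also deposited FPKM values, which are scaled by gene length and library and were used only to set levels of different genes side by side. HISAT2 2.0.5 and the build mRatBN7.2 are named per the submitters' processing notes. No counting tool, annotation or use of strand is given in the sources used here, so overlapping, antisense and near-identical genes could share or split reads. Gene coordinates are those of the files. They reach 282724300 on chromosome 1, past the end of that chromosome in mRatBN7.2, and their build is unresolved.

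Counts were filtered with filterByExpr (minimum count 10, total 15), scaled by TMM and fitted with edgeR 4.0.16 in R 4.3.3 by group over all 9 libraries. The contrast was TAA minus 0.5 of control minus 0.5 of TAA+celecoxib, and its quasi-likelihood test was 2-sided, with Benjamini-Hochberg adjustment at 0.05 over all 15954 genes. At the edge of the filter, with no test, LOC103690005 lay just inside with 0.600 CPM in its third-highest library and Npy just outside with 0.594 CPM. The SE of a log2 fold change was taken from the same test, as its size divided by the square root of F, and intervals cover 95%. Totals per library limit the precision of low genes.

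The rule named, in each direction, up to 12 genes with all 3 TAA libraries on 1 side of the other 6, a mean of at least 1 CPM and the smallest p. Entries without a gene name, and placeholder symbols such as those starting with LOC, RGD or AABR, were left out of this step. Of the genes with separate positions, 202 of 238 above and 244 of 302 below had a gene name by this standard. It also named the leading members of 34 gene lists, with Ptgs1 and Ptgs2. Other genes named as list members come from the same lists, and the single-library genes under the closing observations were chosen after their values were seen. The comparison, its members and the lists were chosen with earlier results of these data known. Of the 610 listed symbols, 583 were in the files and 527 were tested. Alternatives were limma-voom (limma 3.58.1), DESeq2 1.42.0, its size factors, no filter, a 2-group fit, replicate number as a block, and each library left out. Promoter sequences are from RefSeq (GRCr8). A few list members are counted in the lists but not reported by name here.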

Additional observations from a re-analysis of the deposited data

How the results depend on the processing

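edgeR called 0 genes under TMM, under DESeq2 size factors (949 genes at unadjusted p under 0.05), without the low-count filter (0 of 22879) and in the 2-group fit, and limma-voom called 0. DESeq2 called 51 of 15954, among them 24 of the 103 named genes. The named genes were chosen by p and position in the same libraries, so this overlap is in part fixed by the choice. Leaving out each library in turn gave 0 to 2 called genes, with 710 to 1593 at unadjusted p under 0.05. The calls were Fabp5 and LOC103689983 without TAA 1 and AC141521.1 without TAA+celecoxib 1, and the 1593 came without TAA+celecoxib 2. Without control 1 and TAA+celecoxib 1 together, chosen after seeing the data, 1 gene was called, AC141521.1, with 808 at unadjusted p under 0.05. With replicate number as a block, edgeR called 0 genes and had 1553 at unadjusted p under 0.05. In their deviations from group means, same-numbered control and TAA+celecoxib libraries correlated at 0.18 to 0.47, and same-numbered pairs with a TAA library at -0.21 to 0.24. Because not every pair was over 0.1, the samples were taken to share only a number for comparisons with TAA. TAA+celecoxib against control was also fitted without replicate number, although every same-numbered pair of these groups was over 0.1. As a hint from the data, a library correlated best with its own number in 11 of 18 cases. Named genes kept their direction under every alternative except Hpx (-0.83 without TAA 1, up to 5.75 without control 1), Apoa1 (-2.02 without TAA 1, up to 5.02 without both libraries that stood apart), Cela2a (-0.070 without TAA 2, up to 1.34 without TAA 1) and Krt18 (-0.72 without TAA 1, up to 1.53 without both). In all of these exceptions the TAA libraries overlapped the others. For genes named because their TAA libraries lay apart from the others, the choice itself largely fixes the direction. The causes of the reversals were not tested. Genes with all TAA libraries above the other 6 numbered 238, 235 under DESeq2 size factors and 208 by plain totals, and those below 302, 327 and 289. With 3 libraries a group, p-values of low genes such as Ptgs2, Npr3 and Sp6 rest on few counts.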

Other observations

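Genes high in 1 TAA library were a sizeable share of the high side and absent from the low side by the measure used. Of the 453 genes higher in TAA at unadjusted p under 0.05, 76 were under 0.5 of their log2 fold change when 1 TAA library was left out, 15 without TAA 1, 6 without TAA 2 and 55 without TAA 3. Of the 491 genes lower in TAA, 0 did so. A gene at low level in 2 libraries and high in 1 can reach a large mean, whereas a gene cannot go below 0, so the measure is not symmetric between the directions.

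The genes in TAA 1 included Alb, Hpx and Apoa1, plasma proteins made by liver, and Nhp2, a protein of small nucleolar ribonucleoproteins, which was at 44.8 CPM there and 0.451 to 0.753 CPM in the other 8 libraries. In TAA 3 they included Epx and Prg2, granule proteins of eosinophils, at 90.9 and 146 CPM, and Sirpd, at 30.7 CPM against at most 0.685 CPM elsewhere. AABR07065673.1, a gene known here only by this name, was at 103 CPM in TAA 3 and at most 2.19 CPM in the other 8.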
